A study of Gallus gallus with 20 samples.

Results

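The type IV collagen chains and the nidogens are 8 genes: COL4A1, COL4A2, COL4A3, COL4A4, COL4A5, COL4A6, NID1 and NID2. They were chosen by their symbols in the annotation of an Affymetrix chicken genome array, and all 8 of 8 had at least 1 probe set (the oligonucleotides that report on one transcript), out of 13009 genes with a probe set of a single symbol. Where a gene had several probe sets, the one with the highest mean over all 20 arrays was used.

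The arrays measured total RNA from the skin of white leghorn chicken embryos, with epithelium and mesenchyme pulled apart in EDTA and hybridised separately. Scale-forming skin came from the metatarsus, as undifferentiated skin at embryonic day 9 (E9se for epithelium, E9sm for mesenchyme, 2 arrays each) and as differentiated skin at day 11 (E11se and E11sm, 3 arrays each). Feather-forming skin came from the back, as undifferentiated skin at day 7 (E7fe and E7fm, 2 arrays each) and as differentiated skin at day 9 (E9fe and E9fm, 3 arrays each). Every sample was a pool labelled as a biological replicate, and how many embryos a pool held is not given in the sources used here. The p-values therefore measure the spread between pools. Skins of like competence were compared (E9 scale with E7 feather, E11 scale with E9 feather), which leaves embryo age and skin region changing together, and E9 scale was also compared with E9 feather skin of the same day.

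Type IV collagen is the network-forming collagen of basement membranes, the sheet of matrix on which an epithelium sits and which also wraps blood vessels, nerves and muscle. Its chains assemble into trimers of fixed make-up. The α1 and α2 chains form the widespread trimer, the α3, α4 and α5 chains form the trimer known from the glomerulus of the kidney, and α5 and α6 chains share a trimer known from the basement membrane of skin. Nidogen-1 and nidogen-2 are glycoproteins that link the collagen network to the laminin network. In skin the mesenchyme is known to supply part of the matrix that lies under the epithelium. In the chicken RefSeq annotation (assembly GRCg7b) the collagen genes lie as adjacent pairs, COL4A1 beside COL4A2 on chromosome 1, COL4A4 beside COL4A3 on chromosome 9 and COL4A5 beside COL4A6 on chromosome 4, while NID1 is on chromosome 3 and NID2 on chromosome 5.

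Levels are given as log2 of the probe set summary that the authors deposited, so that a difference of 1 is a doubling of signal. A level was compared between arrays for a given gene and never between genes, since probe sets differ in brightness. Each difference comes from a linear model with 1 mean per group (limma, fitted over 38439 probe sets), with its standard error (SE) and a p-value adjusted by Benjamini-Hochberg over all probe sets of the comparison, and it passed at an adjusted p below 0.05.

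The array labelled E9fe replicate 1 and the array labelled E9fm replicate 1 went against their labels. SP8, a transcription factor gene of limb ectoderm, stood at 10.16 on E9fe replicate 1, where replicates 2 and 3 had 3.98 and 4.01 and the scale epithelium arrays of the same day had 9.50 and 10.15. TBX4, a hindlimb gene, was at 10.39 on the first E9fm array but at 5.29 and 5.35 on replicates 2 and 3. In E9sm it was at 11.16 and 10.17. The trunk gene HOXC9 was at 5.82 on the first E9fm array but at 9.69 and 9.56 on replicates 2 and 3. In E9sm it was at 5.02 and 4.94. HOXC9 was read in mesenchyme only, since it was at 9.76 and 9.97 in E9se, against 9.64, 8.94 and 8.78 in E9fe. The array labelled E9fe replicate 1 also had a mean of 10.99 over the 14 mesenchyme markers (8.77 and 8.84 on the other E9fe arrays), and the array labelled E9fm replicate 1 a mean of 7.94 over the 11 epithelium markers measured (5.59 and 5.90 on the other E9fm arrays). Both arrays, called here the 2 doubted arrays, were kept under their labels. The total counts of calls are also given without them, and so are many of the single comparisons that rest on them. The labelled compartments otherwise held: over these lists the epithelium marker mean was 5.56 to 7.15 in the other mesenchyme arrays, against 9.95 to 10.98 in the epithelium arrays, and the mesenchyme marker mean was 12.46 to 12.76 in mesenchyme.

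**Figure D1:**
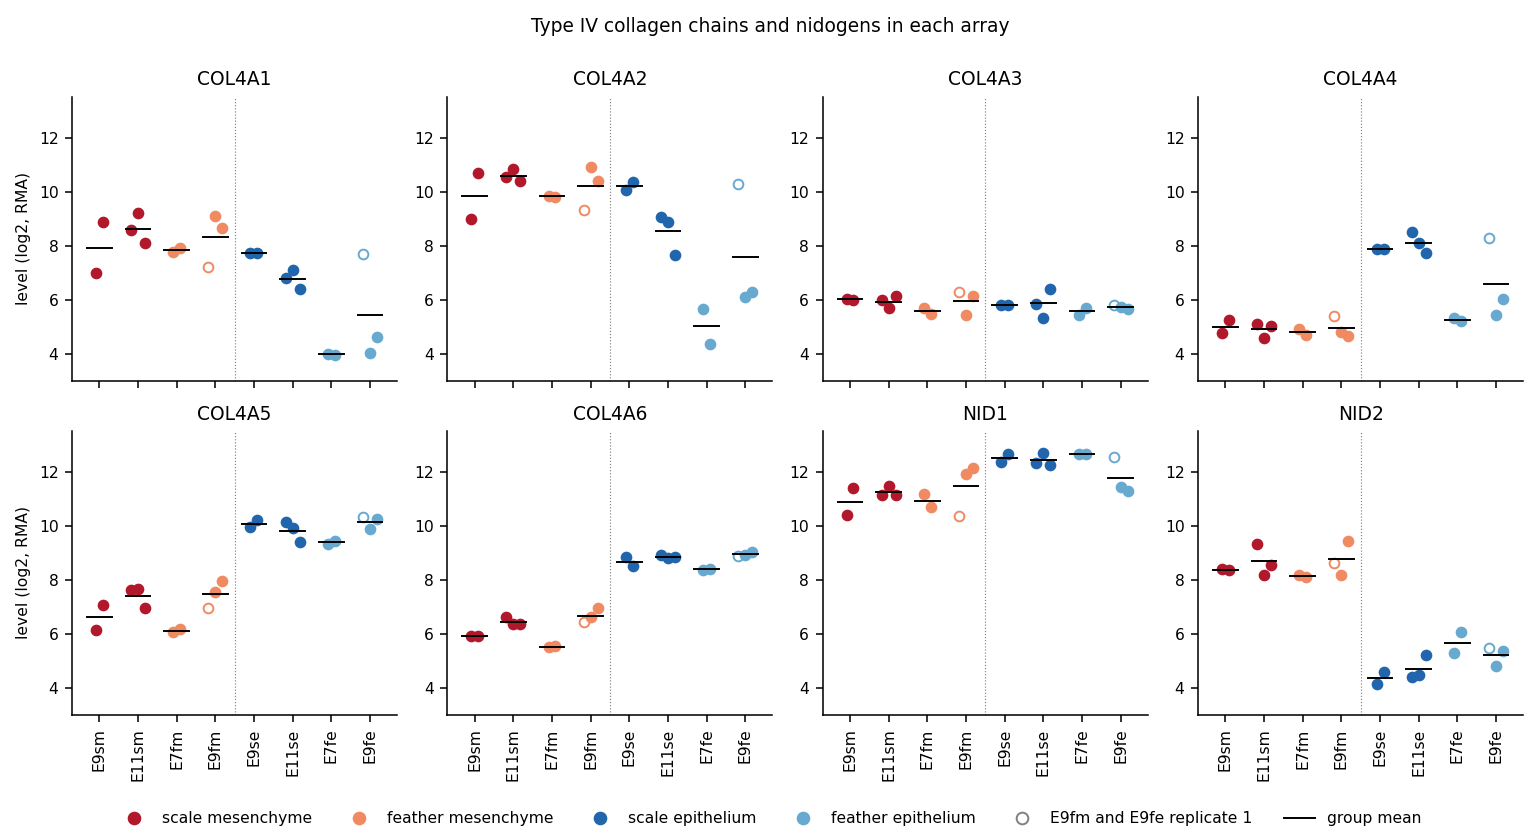
Log2 level (vertical axis) of the 8 genes in each of the 20 arrays, with mesenchyme left and epithelium right of the dotted line, 1 point per array, a bar at the group mean, and open points for E9fm and E9fe replicate 1. COL4A1, COL4A2 and COL4A4 stand high in both scale epithelia and low in feather epithelium except for the open E9fe point, COL4A5 and COL4A6 follow the epithelium, and NID2 follows the mesenchyme.

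COL4A1 and COL4A2, which encode the chains of the widespread collagen IV trimer, had high levels in every mesenchyme and in scale epithelium and low levels in feather epithelium, apart from the array labelled E9fe replicate 1. In epithelium, COL4A2 stood at 10.07 and 10.35 in E9se and at 9.05, 8.87 and 7.65 in E11se, against 5.64 and 4.37 in E7fe and 10.28, 6.11 and 6.28 in E9fe. The scale arrays all lay above the feather arrays apart from the array labelled E9fe replicate 1, whose level was that of E9 scale epithelium. COL4A2 was higher by 5.21 in E9se than in E7fe (SE 1.02, adjusted p = 0.0211), and it was the only 1 of the 8 genes that passed. Both E7fe levels lie below the median of all probe set means, 5.71, and the values used here carry no detection call, so no fold is given. In that comparison 0.817% of all probe sets passed. The call was lost on leaving out any one of the 4 arrays compared, with differences of 4.57 to 5.84 and adjusted p-values of 0.0975 to 0.242, and it held without the arrays labelled E9fe and E9fm replicate 1 (SE 0.52, adjusted p = 6.77e-05).

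COL4A1 had the same order of group means in epithelium. It stood at 7.74 and 7.74 in E9se and at 6.80, 7.11 and 6.38 in E11se, against 4.0 and 3.95 in E7fe and 7.68, 4.04 and 4.62 in E9fe. E9se and E7fe did not overlap, at 2 arrays each, and the share of all probe sets without overlap was not counted. The difference between E9se and E7fe was 3.76 (SE 0.89, adjusted p = 0.0663) and did not pass with all arrays. It passed without the 2 doubted arrays (adjusted p = 0.000412), when 1.98% of all probe sets and 3 of the 8 genes did, and also on leaving out E9fe replicate 1, E9fe replicate 2 or E9fm replicate 1 alone (adjusted p = 0.00264, 0.0391 and 0.0432). The estimate does not move in these fits, because none of those arrays belongs to the comparison, and the spread pooled over groups does.

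Against E9 feather epithelium no gene of the 8 passed with all arrays, either in E11se against E9fe (0.312% of all probe sets passed) or in E9se against E9fe (0.0754%). Without the array labelled E9fe replicate 1 and that labelled E9fm replicate 1, 4 of the 8 passed in each comparison, all higher in scale epithelium: COL4A1, COL4A2, COL4A4 and NID1. The share of all probe sets passing was then 2.65% and 3.19%. COL4A1 was higher by 2.43 in E11se and by 3.41 in E9se than in E9fe (adjusted p = 0.00521 and 0.000651), where the differences with all arrays were 1.32 and 2.29. COL4A2 was higher by 2.33 and 4.02 (adjusted p = 0.0156 and 0.0004), where the differences with all arrays were 0.97 and 2.65. Leaving out E9fe replicate 1 alone also brought both genes past the threshold, with adjusted p-values of 0.00108 to 0.0341.

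In mesenchyme the levels of both genes overlapped between scale and feather skin. COL4A2 stood at 8.97 and 10.68 in E9sm and at 10.53, 10.84 and 10.41 in E11sm, against 9.85 and 9.81 in E7fm and 9.30, 10.90 and 10.41 in E9fm. COL4A1 stood at 6.97 and 8.87 in E9sm and at 8.57, 9.19 and 8.11 in E11sm, against 7.77 and 7.90 in E7fm and 7.20, 9.10 and 8.66 in E9fm. In mesenchyme no gene of the 8 passed with all arrays in E9sm against E7fm, E11sm against E9fm or E9sm against E9fm, where 0.788%, 0.0052% and 0% of all probe sets did. Without the 2 doubted arrays the shares were 2.01%, 2.31% and 2.87%, and COL4A1 and COL4A2 again passed in none of the 3. With all arrays their 6 differences ran between -0.40 and 0.39, with SEs of 0.73 to 1.02. Without the 2 doubted arrays the difference between E9sm and E9fm was -0.96 for COL4A1 and -0.83 for COL4A2 (adjusted p = 0.491 and 0.703), where those with all arrays were -0.40 and -0.38. The difference between E11sm and E9fm was then -0.25 and -0.06 (adjusted p = 1 for both), where those with all arrays were 0.31 and 0.39, so its sign turned.

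The lowest mesenchyme levels of COL4A1 and COL4A2 were on E9sm replicate 1 and on the array labelled E9fm replicate 1, which also had the lowest endothelium marker means. Over 16 of 17 endothelium markers on the array, the mean was 6.26 on E9sm replicate 1 and 7.86 on replicate 2, and it was 6.61 on E9fm replicate 1, against 8.31 and 8.29 on replicates 2 and 3. In the other mesenchymes it was 7.56 to 7.94 (E11sm) and 7.49 to 7.66 (E7fm). CDH5, the cadherin of endothelial junctions, ran between 8.22 and 11.42 over the mesenchyme arrays and between 3.17 and 4.87 over the epithelium arrays. In bulk tissue, fewer cells of a type and less RNA per cell cannot be told apart, and the part of vessel content in the mesenchyme levels was not tested.

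In epithelium the endothelium marker mean was 4.55 to 4.67 in E9se and 4.56 to 4.95 in E11se, against 4.57 to 4.72 in E7fe and 4.70 to 4.93 in E9fe. The mesenchyme marker mean was higher in scale epithelium, at 9.59 to 9.94 in E9se and 9.23 to 9.48 in E11se, against 8.75 to 8.83 in E7fe and 8.77 to 10.99 in E9fe (8.77 and 8.84 without replicate 1). Of its 14 genes, 1 passed as higher and 0 as lower in E9se than in E7fe with all arrays, and 4 and 0 without the 2 doubted arrays, which also gave 5 higher and 0 lower in each comparison of scale epithelium with E9fe (0 and 0 with all arrays). Of all genes, 1.25% passed in E9se against E7fe with all arrays and 3.15% without the 2. In E11se and E9se against E9fe, 0.53% and 0.0999% passed with all arrays, and 4.17% and 5.03% without the 2. Apart from POSTN, the genes named next are set against E7fe alone. POSTN, which encodes the matrix protein periostin, was at 10.22 to 10.76 in E9se and 11.97 to 12.28 in E11se, against 5.42 to 5.76 in E7fe and 11.08 to 11.19 in E9fe. COL1A1 was at 13.39 to 13.45 in E9se and 13.46 to 13.90 in E11se, against 11.56 to 12.09 in E7fe, and COL3A1 was at 12.90 to 12.99 in E9se and 12.17 to 12.82 in E11se, against 11.39 to 11.83 in E7fe. TWIST1 was at 4.70 to 5.98 in E9se and 3.94 to 5.40 in E11se, against 3.54 to 3.99 in E7fe, while its mesenchyme levels were 10.42 to 12.65. TWIST2 was at 5.88 to 7.36 in E9se and 4.24 to 5.01 in E11se, against 3.51 to 3.57 in E7fe, while its mesenchyme levels were 12.07 to 12.96. PDGFRA was at 4.94 to 5.29 in E9se and 4.68 to 5.26 in E11se, against 4.67 to 4.78 in E7fe, and LUM was at 8.18 to 9.15 in E9se and 5.78 to 5.87 in E11se, against 9.43 to 9.54 in E7fe. NID2, high in mesenchyme, was at 4.16 to 4.57 in E9se and 4.41 to 5.23 in E11se, against 5.27 to 6.06 in E7fe. All the PDGFRA levels given here and most epithelial levels of TWIST1 and NID2 lie below the median of all probe set means, 5.71. So do those of TWIST2 in E11se and E7fe, and an order among such levels was not read. The part of mesenchyme carried over in the COL4A1 and COL4A2 levels of scale epithelium was not tested. The level of COL4A2 in E9sm, 9.83 ± 1.21 (SD, n = 2), differed from that in E9se, 10.21 ± 0.20 (SD, n = 2), by less than the SE of 1.02.

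**Figure D2:**
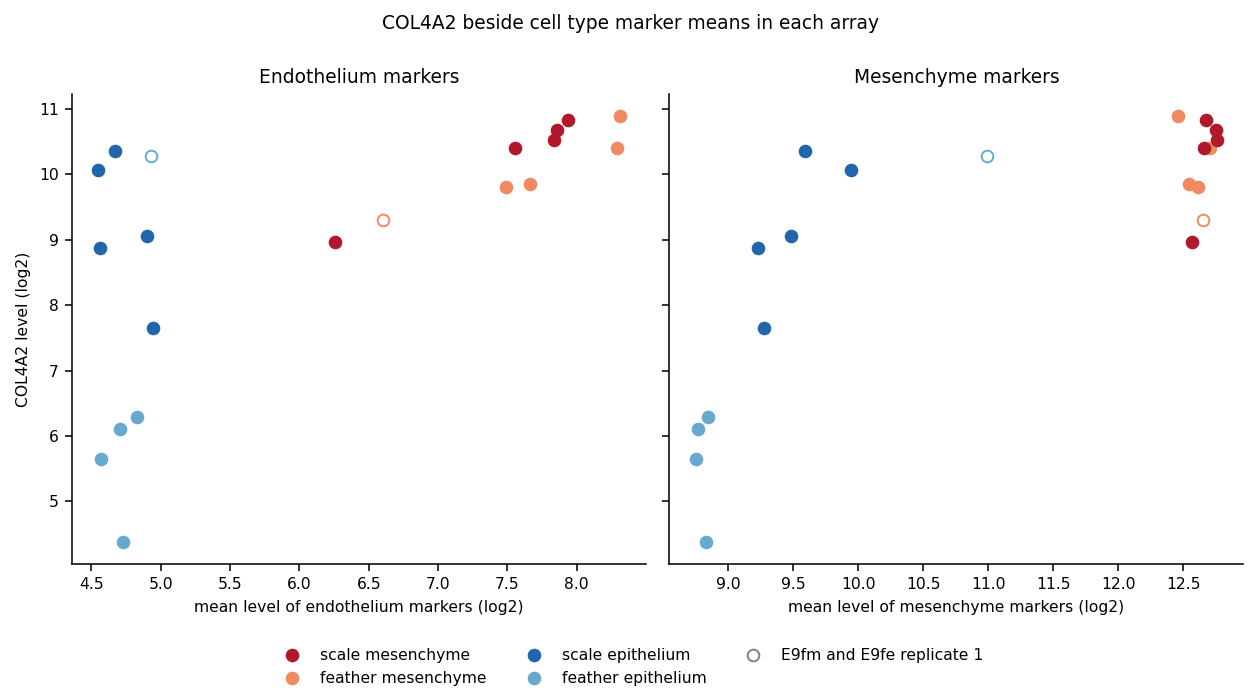
COL4A2 level (vertical axis, log2) in each array against the mean level of the endothelium markers (left) and of the mesenchyme markers (right), both on log2 axes that do not start at 0. The 5 scale epithelium arrays lie at endothelium marker means of 4.55 to 4.95, as feather epithelium does, with COL4A2 at 7.65 to 10.35, and the mesenchyme arrays with the lowest endothelium marker means have the lowest COL4A2. On the right the scale epithelium arrays lie at 9.23 to 9.94 and the feather epithelium arrays at 8.75 to 8.84, apart from the open point at 10.99.

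The 2 genes were then compared between the compartments of each skin. In E7 feather skin, COL4A1 was higher in mesenchyme than in epithelium by 3.86 (SE 0.89, adjusted p = 0.0069) and COL4A2 by 4.83 (SE 1.02, adjusted p = 0.00344). COL4A1 lost the call without E7fm replicate 2 (adjusted p = 0.0528) and COL4A2 without E7fe replicate 2 (adjusted p = 0.0517). In that comparison 12.4% of all probe sets passed, and 6 of the 8 genes did. In E9 feather skin, where 17.0% passed, COL4A1 was higher in E9fm than in E9fe by 2.87 and COL4A2 by 2.65 (adjusted p = 0.0107 and 0.0369), and by 4.55 and 4.46 without the 2 doubted arrays (adjusted p = 5.31e-06 and 1.94e-05). COL4A1 lost that call without E9fe replicate 2 or 3 (adjusted p = 0.0695 and 0.0584), and COL4A2 without E9fe replicate 2 or 3 or E9fm replicate 2 or 3 (adjusted p = 0.107 to 0.198). In a fit to only these 2 groups neither passed (adjusted p = 0.128 and 0.216). In this comparison 6 of the 8 genes passed.

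In E9 scale skin the 2 compartments overlapped in both genes. The difference between E9sm and E9se was 0.18 for COL4A1 (SE 0.89, adjusted p = 0.959) and -0.39 for COL4A2 (SE 1.02, adjusted p = 0.914). In E11 scale skin, mesenchyme lay above epithelium on every array in both genes. The share of all probe sets without overlap was not counted. In this comparison 18.8% of all probe sets passed with all arrays and 21.1% without the 2 doubted arrays. The difference between E11sm and E11se was 1.86 for COL4A1 and 2.07 for COL4A2. These differences had adjusted p-values of 0.0938 and 0.104 with all arrays, and of 0.00223 and 0.00226 without the 2 doubted arrays. Leaving out E9fe replicate 1 alone gave 0.01 and 0.00514.

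Whether the scale-feather difference differed between epithelium and mesenchyme was tested as a difference of differences. With all arrays no gene of the 8 passed in the early contrast of E9 scale with E7 feather skin, where 0.492% of all probe sets did. Without the 2 doubted arrays COL4A1, COL4A2 and COL4A4 passed, with the epithelial difference exceeding the mesenchymal one by 3.68, 5.21 and 2.43 (adjusted p = 0.00875, 0.00147 and 0.00251), and 1.68% of all probe sets passed. In the late contrast of E11 scale with E9 feather skin no gene of the 8 passed with all arrays (0.0702% of all probe sets), and without the 2 arrays COL4A1, COL4A4 and NID1 did (2.69, 2.20 and 1.84), when 2.27% of all probe sets passed. Leaving out E9fe replicate 1 alone was enough for COL4A2 and COL4A4 in the early contrast (adjusted p = 0.00596 and 0.00996). It was also enough for COL4A4 in the late one (adjusted p = 0.00304). All COL4A4 mesenchyme levels lie below the median of all probe set means, 5.71. Its mesenchymal difference was thus not read, and its excess rests on the epithelial difference. The change of the scale-feather difference between the early and the late contrast passed for none of the 8 genes, with or without the 2 arrays. In epithelium 0.127% of all probe sets passed that test with all arrays and 0.619% without the 2, and in mesenchyme 0.0442% and 0.38%.

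**Figure D3:**
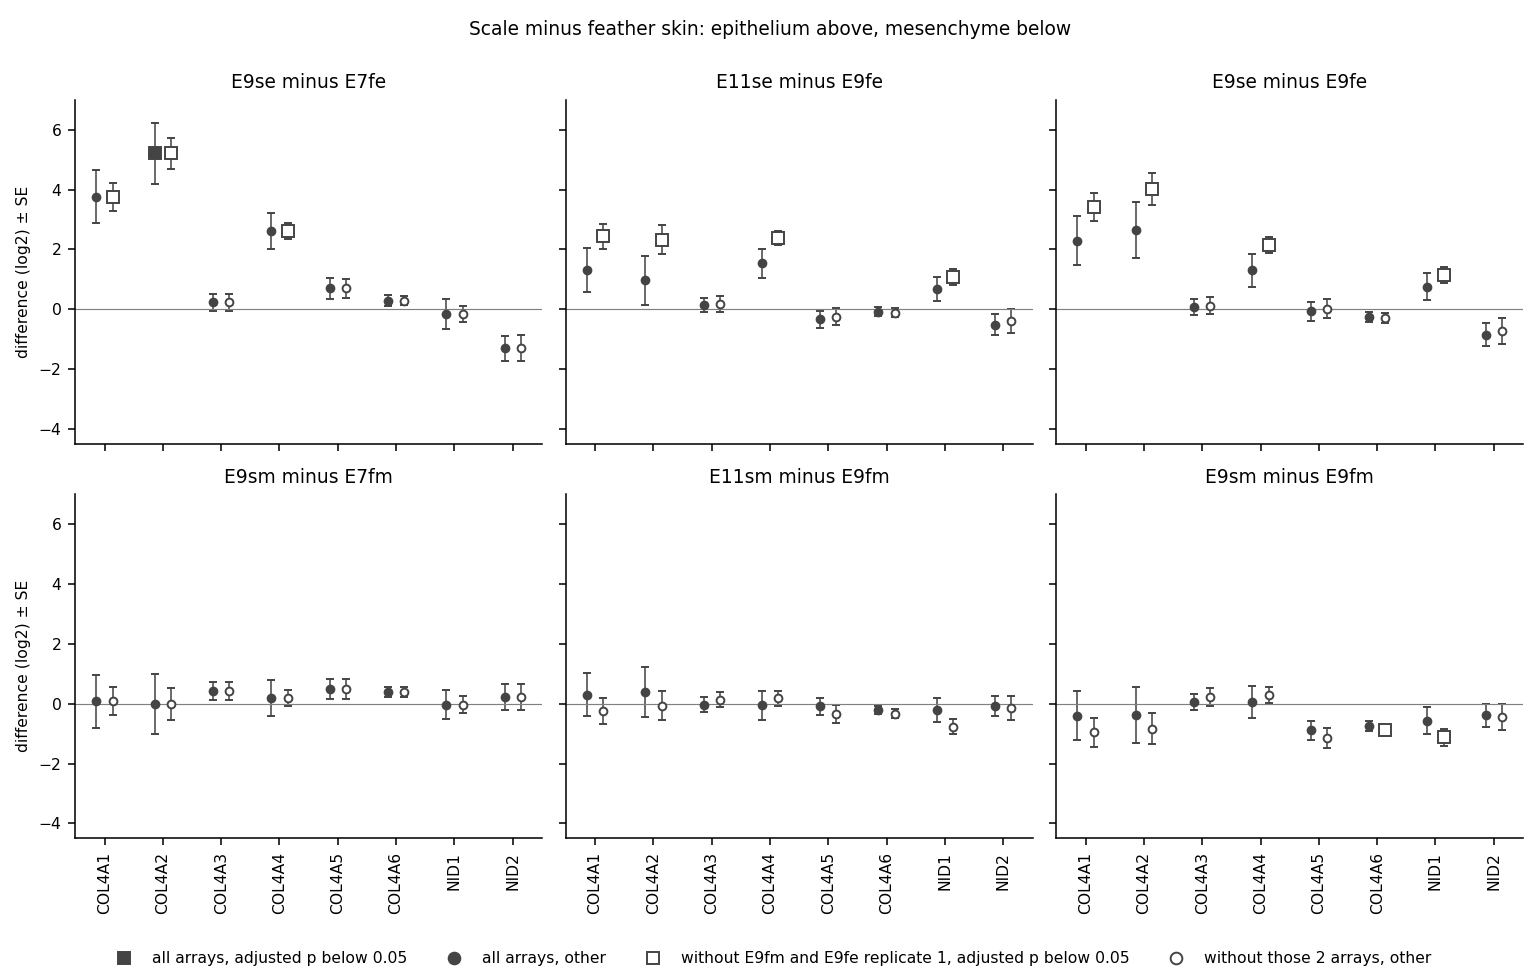
Scale minus feather difference (vertical axis, log2 ± SE) of the 8 genes in the 6 comparisons, epithelium in the upper row and mesenchyme in the lower, with filled points for all arrays, open points without E9fm and E9fe replicate 1, and squares for an adjusted p below 0.05. COL4A2 in E9se minus E7fe is the 1 filled square, and 13 of the 48 values are open squares.

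With all arrays, the mean level of COL4A2 over the 8 groups was highest in E11sm (10.59 ± 0.22), followed by E9se (10.21 ± 0.20), E9fm (10.20 ± 0.82), E7fm (9.83 ± 0.02) and E9sm (9.83 ± 1.21), and then by E11se (8.52 ± 0.76), E9fe (7.56 ± 2.36) and E7fe (5.0 ± 0.90), each with its SD. Each pair of neighbours in this order overlaps in mean ± SD. On leaving out the 2 doubted arrays E9fm (10.65 ± 0.35) came first, overlapping E11sm, and E9fe (6.20 ± 0.13) overlapped neither E11se nor E7fe. COL4A1 was highest with all arrays in E11sm (8.62 ± 0.54) and lowest in E7fe (3.97 ± 0.03), with E9se (7.74 in both arrays) just under the lowest mesenchyme mean, that of E7fm (7.83 ± 0.09). E9fm was highest without the 2 doubted arrays (8.88 ± 0.31), overlapping E11sm.

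The other probe sets of these genes were less bright and, in E9se against E7fe, gave smaller differences. COL4A2 had 6 probe sets, all higher in E9se than in E7fe, by 0.56 to 5.21, and a second one passed (3.78). COL4A1 had 3, of which the second brightest differed by 1.26 in the same direction, and the dimmest, with a mean level of 3.90, differed by -0.16. Averaging all probe sets of a gene gave 1.62 for COL4A1 in E9se against E7fe (adjusted p = 0.0442).

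COL4A4, whose protein is a partner of the α3 and α5 chains in the mammalian kidney, passed as lower in mesenchyme than in epithelium in 3 of the 4 skins, and its highest group means were those of scale epithelium. In epithelium it stood at 7.86 and 7.88 in E9se and at 8.49, 8.08 and 7.73 in E11se, against 5.31 and 5.19 in E7fe and 8.28, 5.43 and 6.01 in E9fe. As for COL4A2, the array labelled E9fe replicate 1 lay within the range of the scale arrays and the other feather arrays lay below it. The difference between E9se and E7fe was 2.62 (SE 0.60, adjusted p = 0.0554) and did not pass with all arrays. It passed without the 2 doubted arrays (SE 0.26, adjusted p = 6.77e-05), with the replicate number as a block (adjusted p = 0.0322), and on leaving out E9fe replicate 1, E9fe replicate 2 or E9fm replicate 1 alone (adjusted p = 0.000199, 0.022 and 0.0475).

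Against E9 feather epithelium the COL4A4 differences were 1.53 in E11se and 1.30 in E9se with all arrays (adjusted p = 0.379 and 0.571). Without the 2 doubted arrays they were 2.38 and 2.16 (adjusted p = 4.8e-05 and 0.000238), and without E9fe replicate 1 alone they passed as well (adjusted p = 0.000157 and 0.00067). Scale epithelium differed little between days, with 8.10 ± 0.38 in E11se (SD, n = 3) and 7.87 ± 0.01 in E9se (SD, n = 2), a difference of 0.23 (SE 0.55).

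In mesenchyme COL4A4 was low throughout. It stood at 4.76 and 5.25 in E9sm and at 5.09, 4.58 and 5.03 in E11sm, against 4.91 and 4.69 in E7fm and 5.41, 4.78 and 4.65 in E9fm. These levels, and those of E7fe, are below the median of all probe set means, so an order among them was not read. COL4A4 was lower in mesenchyme than in epithelium by 2.87 in E9 scale skin (adjusted p = 0.00312) and by 3.20 in E11 scale skin (adjusted p = 0.000134). The difference was -0.45 in E7 feather skin (SE 0.60, adjusted p = 0.871). In E9 feather skin it was -1.62 (adjusted p = 0.0298) with all arrays and -1.0 without the 2 doubted arrays (SE 0.26, adjusted p = 0.0151). That call was lost without E9fe replicate 1 alone (-0.77, adjusted p = 0.0617) and without E9fm replicate 2 or 3 (adjusted p = 0.0776 and 0.11), and in a fit to only these 2 groups (adjusted p = 0.228).

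COL4A3, the neighbour of COL4A4, did not follow it in signal. Its levels lay between 5.33 and 6.39 on the 20 arrays, its group means ran between 5.57 in E7fe and 6.01 in E9sm, and it passed in none of the 14 comparisons. The largest of its 14 differences was 0.43 (E9sm against E7fm, SE 0.29). Its 2 other probe sets had mean levels of 3.70 and 3.78 and passed nowhere. Whether COL4A3 is transcribed in these skins cannot be read from a flat signal near the middle of all probe sets.

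COL4A5 and COL4A6, the chains that share a trimer in mammalian skin, were higher in epithelium than in mesenchyme at each stage in both skins. COL4A6 stood at 5.92 and 5.92 in E9sm, 6.63, 6.37 and 6.35 in E11sm, 5.51 and 5.54 in E7fm and 6.42, 6.64 and 6.95 in E9fm. In epithelium it stood at 8.83 and 8.52 in E9se, 8.93, 8.81 and 8.82 in E11se, 8.36 and 8.41 in E7fe and 8.86, 8.93 and 9.03 in E9fe. No mesenchyme array reached any epithelium array, and the array labelled E9fe replicate 1 lay with its group. COL4A6 was lower in mesenchyme than in epithelium by 2.86 in E7 feather skin, 2.27 in E9 feather skin, 2.75 in E9 scale skin and 2.40 in E11 scale skin (SE 0.14 to 0.17, adjusted p = 4.79e-09 to 4.36e-08).

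COL4A5 had the same division. It stood at 6.14 and 7.07 in E9sm, 7.61, 7.67 and 6.95 in E11sm, 6.07 and 6.16 in E7fm and 6.97, 7.54 and 7.96 in E9fm. In epithelium it stood at 9.94 and 10.22 in E9se, 10.12, 9.92 and 9.39 in E11se, 9.33 and 9.44 in E7fe and 10.32, 9.86 and 10.26 in E9fe. The differences were -3.27, -2.66, -3.47 and -2.40 in the same order of skins (SE 0.28 to 0.35, adjusted p = 2.86e-06 to 9.56e-06). These calls for both genes held without the 2 doubted arrays and on leaving out each array in turn. The second brightest COL4A5 probe set passed in the same direction in all 4 skins (-2.91 to -3.56). Its 2 dimmer probe sets differed less between compartments. Their group means were 4.78 to 5.15 and 4.45 to 4.63 in mesenchyme, against 5.33 to 5.91 and 4.63 to 4.80 in epithelium.

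Within mesenchyme, COL4A6 was higher in E9fm than in E7fm by 1.14 (SE 0.16, adjusted p = 0.00235), and with all arrays it was the 1 gene of the 8 that passed in any comparison of a later with an earlier stage. In that comparison 0.52% of all probe sets passed. The call was lost without E7fm replicate 1 or 2 (adjusted p = 0.0507 and 0.061) and in a fit to only the 2 groups (adjusted p = 0.307), and was kept without the 2 doubted arrays, with a difference of 1.27 (adjusted p = 0.000551). COL4A5 differed there by 1.38 (SE 0.32, adjusted p = 0.0738) and by 1.64 without those arrays (adjusted p = 0.0128), and the second brightest COL4A5 probe set passed with all arrays (1.56). The 2 dimmer COL4A5 probe sets had group means of 4.95 and 4.54 in E9fm, against 4.78 and 4.45 in E7fm. COL4A5 also passed without E9fm replicate 1, E9sm replicate 1 or E9sm replicate 2 alone (adjusted p = 0.0122, 0.0443 and 0.0443). The epithelium marker mean also differed in these mesenchymes, at 5.59 to 7.94 in E9fm (5.59 and 5.90 without replicate 1), against 5.56 to 5.58 in E7fm, and its part in the result was not tested.

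Between E11sm and E9sm the differences were 0.53 for COL4A6 and 0.80 for COL4A5 (adjusted p = 1 for both), in a comparison where 0 of 38439 probe sets passed in limma and 1041 had an unadjusted p under 0.05. COL4A6 did not overlap between those 2 groups, and the share of all probe sets without overlap was not counted. No gene of the 8 passed with all arrays in E9fe against E7fe, where 0.637% of all probe sets did, or in E11se against E9se, where 0.676% did (1.69% without the 2 doubted arrays). In epithelium the later stage differed from the earlier by 0.55 for COL4A6 (E9fe against E7fe, adjusted p = 0.184) and 0.76 for COL4A5 (adjusted p = 0.599), and by 0.18 and -0.27 in E11se against E9se.

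With all arrays neither gene passed between scale and feather skin. In epithelium the 3 differences were 0.69, -0.34 and -0.07 for COL4A5 and 0.29, -0.08 and -0.27 for COL4A6 (E9se against E7fe, E11se against E9fe, E9se against E9fe), and none passed. In E9 mesenchyme the COL4A6 difference between E9sm and E9fm was -0.75 (SE 0.16, adjusted p = 0.271), in a comparison where 0 probe sets passed and 2508 had an unadjusted p under 0.05. Without the 2 doubted arrays the difference was -0.87 (adjusted p = 0.00726), without E9fm replicate 1 alone it also passed (adjusted p = 0.00665), and 2.87% of all probe sets passed. COL4A5 had -0.88 with all arrays and -1.14 without the 2 (adjusted p = 0.616 and 0.0838).

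The skeletal muscle marker mean was 4.71 and 4.69 in E9sm, against 5.05, 6.72 and 6.47 in E9fm, and the endothelium marker mean was lower in E9sm replicate 1 as given above. Muscle fibres and vessels both have a basement membrane, and the part of either in the E9 mesenchyme comparison was not tested.

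**Figure D4:**
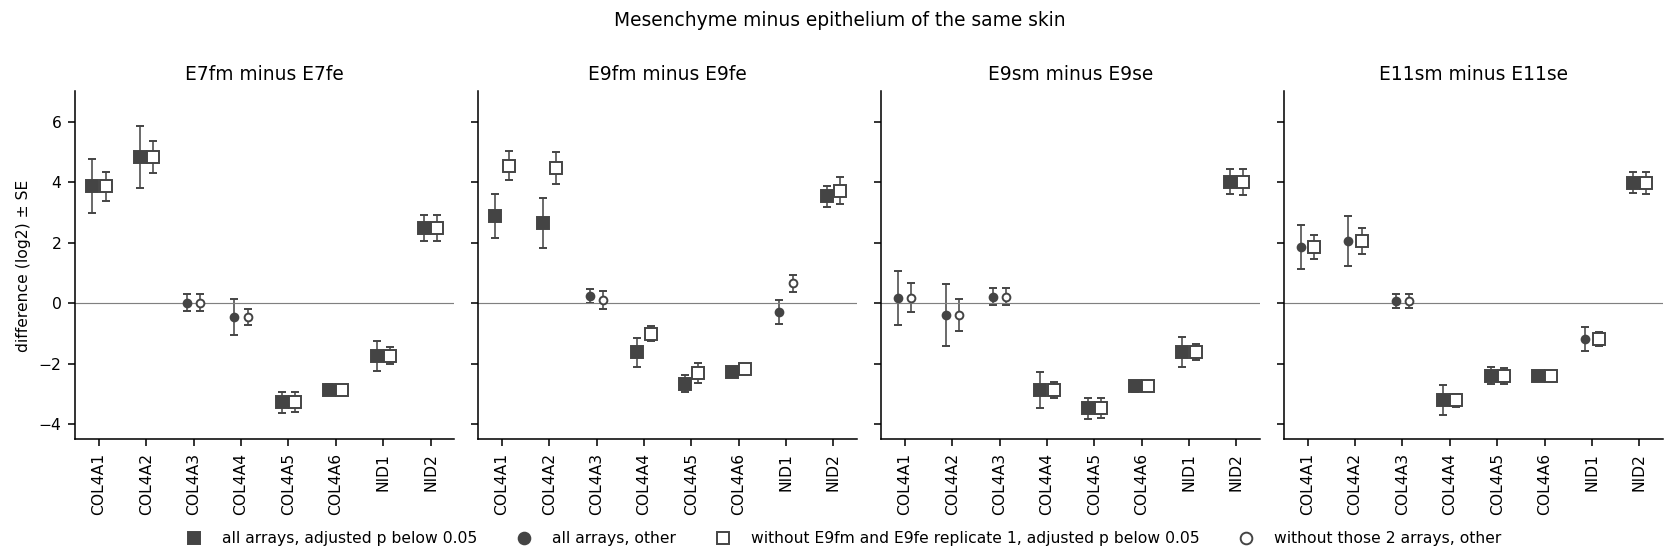
Mesenchyme minus epithelium difference (vertical axis, log2 ± SE) of the 8 genes in E7 feather, E9 feather, E9 scale and E11 scale skin, with filled points for all arrays, open points without E9fm and E9fe replicate 1, and squares for an adjusted p below 0.05. COL4A5, COL4A6 and NID2 pass in all 4 skins, COL4A1 and COL4A2 lie near 0 in E9 scale skin, and COL4A4 lies near 0 in E7 feather skin.

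NID2 was higher in mesenchyme in all 4 skins. It stood at 8.39 and 8.36 in E9sm, 9.33, 8.16 and 8.56 in E11sm, 8.19 and 8.11 in E7fm and 8.63, 8.19 and 9.44 in E9fm. In epithelium it stood at 4.16 and 4.57 in E9se, 4.41, 4.48 and 5.23 in E11se, 5.27 and 6.06 in E7fe and 5.48, 4.82 and 5.36 in E9fe. Every mesenchyme array exceeded every epithelium array, that labelled E9fe replicate 1 included. NID2 was higher in mesenchyme by 2.48 in E7 feather skin (adjusted p = 0.000541), 3.53 in E9 feather skin (adjusted p = 1.54e-06), 4.02 in E9 scale skin (adjusted p = 4.45e-06) and 3.98 in E11 scale skin (adjusted p = 2.71e-07), with SEs of 0.34 to 0.42, and these calls held on leaving out each array in turn. The NID2 difference between E9se and E7fe was -1.31 (SE 0.42, adjusted p = 0.279), and the gene passed in no comparison of skin regions or stages.

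NID1 was lower in mesenchyme in 2 of the 4 skins, and its differences in the other 2 did not pass with all arrays. In mesenchyme it stood at 10.40 and 11.38 in E9sm, 11.14, 11.49 and 11.13 in E11sm, 11.16 and 10.68 in E7fm and 10.36, 11.91 and 12.13 in E9fm. In epithelium it stood at 12.35 and 12.66 in E9se, 12.33, 12.70 and 12.26 in E11se, 12.66 and 12.67 in E7fe and 12.55, 11.44 and 11.28 in E9fe. E9 feather skin was the exception, since 2 of 3 epithelium arrays lay below 2 of 3 mesenchyme arrays. NID1 was lower in mesenchyme by 1.74 in E7 feather skin (SE 0.50, adjusted p = 0.0277) and by 1.61 in E9 scale skin (SE 0.50, adjusted p = 0.0393), where 13.8% of all probe sets passed, and the difference in E11 scale skin was -1.18 (SE 0.40, adjusted p = 0.0536), where 18.8% passed.

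These NID1 calls were near the threshold. The E7 call was lost on leaving out any one of its 4 arrays (adjusted p = 0.0674 to 0.21). The E9 scale call was lost without E9se replicate 1 or 2 or E9sm replicate 1 (adjusted p = 0.114 to 0.346) and without E7fe replicate 1 or 2, E11se replicate 1 or E11sm replicate 1, which are not in the comparison (0.0503 to 0.0508). The E11 scale difference passed without the 2 doubted arrays (adjusted p = 0.00124), and without any one of E9fe replicate 1, E9fm replicate 1, E9fm replicate 3, E9sm replicate 1 and E9sm replicate 2 (0.00983 to 0.0481). The 3 other NID1 probe sets passed as lower in mesenchyme in E7 feather skin (-1.89 to -2.20) and E11 scale skin (-1.61 to -2.16) and did not pass in E9 scale skin (-1.33 to -1.62).

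In E9 feather skin the NID1 difference was -0.29 with all arrays (SE 0.40, adjusted p = 0.757) and 0.66 without the 2 doubted arrays (SE 0.28, adjusted p = 0.132), so its sign rests on the arrays labelled replicate 1. On each other NID1 probe set, replicates 2 and 3 of E9fm and E9fe overlapped. The brightest of those stood at 9.95 and 9.74 in E9fm, against 9.86 and 9.34 in E9fe. In feather epithelium the NID1 difference between E9fe and E7fe was -0.91 (adjusted p = 0.827), and without those arrays NID1 was lower in E9fe by 1.31 (adjusted p = 0.0201), when 2.22% of all probe sets passed. NID1 was higher in E11se and in E9se than in E9fe by 1.07 and 1.15 without the 2 arrays (adjusted p = 0.036 and 0.0356), where the differences with all arrays were 0.68 and 0.75, and it was lower in E9sm than in E9fm by 1.13 (adjusted p = 0.0428), where the difference with all arrays was -0.57. Between E9se and E7fe the NID1 difference was -0.16 (SE 0.50).

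Over the 14 comparisons, 23 of 112 values passed: 1 of 48 between scale and feather skin, 1 of 32 between stages and 21 of 32 between compartments. Of all probe sets, 0% to 0.817%, 0% to 0.676% and 12.4% to 18.8% passed in the comparisons of each kind. Of all genes, each by its brightest probe set as for the members, 0% to 1.31%, 0% to 1.08% and 17.8% to 26.7% passed. The counts without the 2 doubted arrays were 13, 3 and 24, and the shares of all probe sets 1.98% to 3.19%, 0% to 2.27% and 14.2% to 21.1%. The shares of all genes were then 3.15% to 5.03%, 0% to 3.61% and 20.7% to 29.7%.

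The signals of the adjacent gene pairs fell out in 2 ways. Over the 20 arrays, COL4A1 and COL4A2 had a Pearson correlation of 0.97 (Spearman 0.96) and kept 0.94 within groups, where each array was taken as its deviation from the group mean. COL4A5 and COL4A6 had 0.98 over all arrays (Spearman 0.93) and 0.47 within groups, so most of their common variation was between groups. COL4A4 and COL4A3 had 0.01 (Spearman 0.02), with a flat COL4A3 signal from which its transcription cannot be read. Among pairs that are not adjacent, COL4A6 and NID2 had -0.90, COL4A4 and NID2 -0.80 and COL4A5 and NID1 0.77. COL4A1 and NID1 had -0.22 over all arrays and 0.85 within groups. These correlations over all arrays moved by less than 0.05 without the 2 doubted arrays. Those within groups hold the 2 doubted arrays and were not computed without them. On E9fe replicate 1, COL4A1 stood at 7.68 (4.04 and 4.62 on replicates 2 and 3), and on E9fm replicate 1 at 7.20 (9.10 and 8.66). COL4A2 and NID1 stood apart in the same directions, so the 0.94 and the 0.85 rest in part on these arrays. The correlations are descriptions with no test, over arrays that share compartments and pools.

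**Figure D5:**
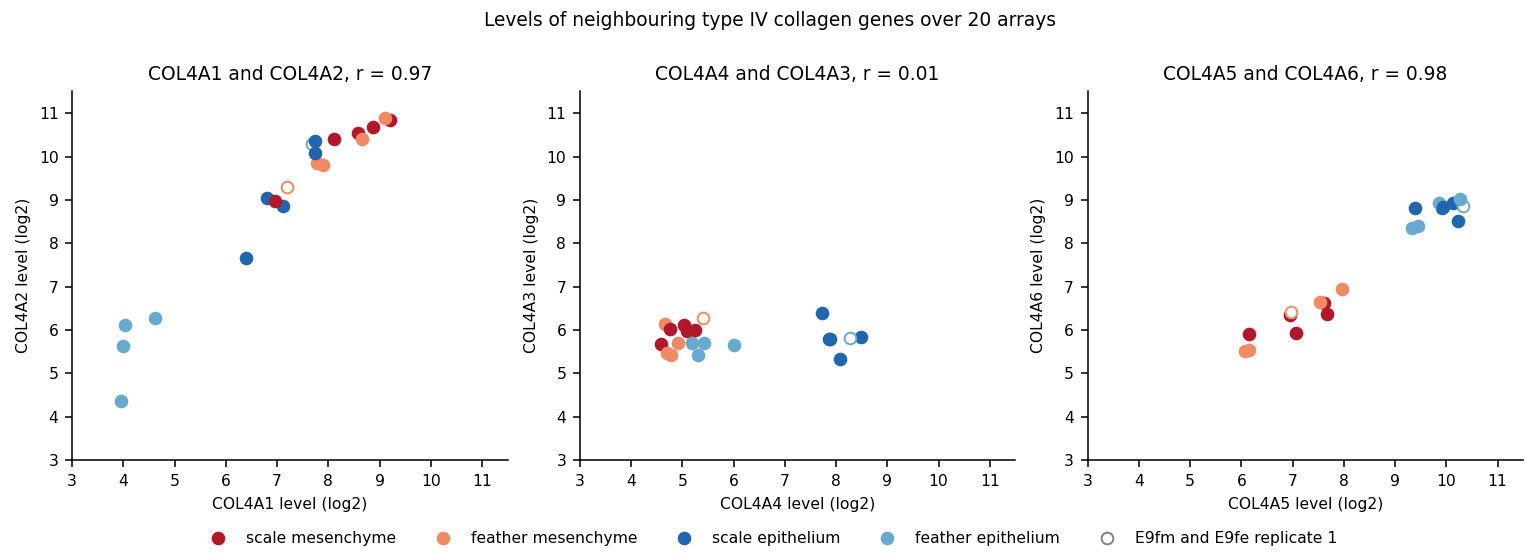
Levels (both axes log2) of the 3 adjacent gene pairs in each of the 20 arrays, with open points for E9fm and E9fe replicate 1. COL4A1 and COL4A2 lie along 1 line that runs through scale epithelium, COL4A3 stays flat while COL4A4 separates scale from most feather epithelium, and COL4A5 and COL4A6 form an epithelium cluster and a mesenchyme cluster.

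The genes whose profile over the 20 arrays was most like that of each member, by Pearson correlation among 13001 other genes, fell into the same patterns. RFTN1 (0.93), the fibrillar collagen gene COL3A1 (0.93) and the lymphangiogenic growth factor gene VEGFC (0.93) led for COL4A1, and the ephrin receptor gene EPHA3 (0.92), RFTN1 (0.91) and COL3A1 (0.91) for COL4A2. LOC428499 (0.97) and SP8 (0.96) led for COL4A4, and SP8 is also a gene by which E9fe replicate 1 was doubted. MAP3K1 and the laminin receptor subunit gene ITGA6 (0.97 each) led for COL4A5, and EPHA1, ADGRG1 and GRHL1 (0.98 each) for COL4A6. WWC3 (0.93) and CA13 (0.93) led for NID1, and PALD1 and FZD2 (0.98 each) for NID2. COL4A3 was left out because its group means span less than 1.

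Other basement membrane components were also divided between the compartments. Of 31 laminins and other components on the array, 5, 6, 6 and 7 were higher and 5, 6, 9 and 10 lower in mesenchyme, in E7 feather, E9 feather, E9 scale and E11 scale skin. Of all genes, 17.8% to 26.7% passed in either direction in these comparisons. When the 2 doubted arrays were left out, 6, 9, 8 and 9 of the 31 were higher and 5, 8, 10 and 11 lower, and 20.7% to 29.7% of all genes passed. LAMA5 and COL17A1, a laminin chain and the collagen of hemidesmosomes, were lower in mesenchyme in E9 feather skin by 4.49 and 5.0 (4.90 and 5.79 without the 2 doubted arrays), and LAMB4, a laminin β chain, was lower in E9 scale skin by 6.34. EFEMP1, a fibulin, was higher in mesenchyme by 6.02 in E7 feather skin and 4.35 in E9 scale skin. The median difference over the list was 0.05 to 0.32, against -0.06 to 0.01 over all probe sets. The list median takes each gene by its brightest probe set and the other takes every probe set, so the 2 are unlike measures. Between E9se and E7fe, 1 of 31 passed, LAMB3 (1.15, adjusted p = 0.0284), and without the 2 doubted arrays 4 were higher and 1 lower. LAMB4 was then higher in E11se than in E9fe by 4.44 (adjusted p = 7.25e-08) and in E9se by 5.17 (adjusted p = 4.83e-08). Within feather epithelium LAMB4 was lower in E9fe than in E7fe by 3.55 in the same fit (adjusted p = 1.76e-06). A high level was thus not particular to scale epithelium.

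Of 25 genes for enzymes and carriers that modify, fold, export or crosslink collagen IV, 4, 9, 4 and 10 were higher in mesenchyme in the same order of skins and none was lower with all arrays. The 4 of 25 in E7 feather and in E9 scale skin lie below the lowest of the shares of all genes given above. The counts without the 2 doubted arrays were 6, 9, 8 and 12 higher and 1, 0, 1 and 0 lower. P4HA3, a prolyl hydroxylase subunit, was higher by 4.20, 3.80, 4.32 and 5.16, and SEC24D, a coat protein subunit of the vesicles that carry procollagen, by 2.34 in E11 scale skin. None of the 25 passed between scale and feather epithelium with all arrays. Without the 2 arrays SEC24D was higher in E9se than in E7fe by 1.85 (adjusted p = 0.000163), in E11se than in E9fe by 1.04 (adjusted p = 0.00597) and in E9se than in E9fe by 1.58 (adjusted p = 0.000379). LOXL3, a crosslinking enzyme, was lower in E9sm than in E7fm by 2.84 (adjusted p = 0.00068). It was also lower within feather mesenchyme, in E9fm than in E7fm, by 2.18 (adjusted p = 0.00387). Between E9sm and E9fm, of the same day, no gene of the list passed with all arrays. Without the 2 arrays 4 passed there as higher and 1, LOXL2, as lower.

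Of 18 receptor genes for collagen IV, laminin and nidogen, 4, 6, 4 and 7 were higher and 5, 6, 4 and 5 lower in mesenchyme, beside the same shares of all genes. The counts without those arrays were 5, 6, 5 and 7 higher and 5, 5, 4 and 5 lower. ITGA2, the α subunit of a collagen receptor, was lower in mesenchyme by 4.21, 3.62, 4.39 and 4.07 in the 4 skins, and SDC2, a heparan sulfate proteoglycan, was higher by 3.16 in E7 feather skin and 2.99 in E11 scale skin. None of the 18 passed between scale and feather skin with all arrays, in epithelium or in mesenchyme. With the 2 doubted arrays left out, ITGA11 (1.75) and SDC1 (1.06) were higher and ITGA9 (-1.90) and ITGB3 (-1.71) lower in E9sm than in E9fm, where 4.4% of all genes passed. ITGB3 was also lower in E11sm than in E9fm (-1.16), where 3.81% of all genes passed. In epithelium ITGB4 was higher (1.20) and SDC2 lower (-0.75) in E11se than in E9fe, and SDC1 was lower in E9se than in E9fe (-0.92), where 4.17% and 5.03% of all genes passed.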

How the data were processed

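The authors deposited log2 values of Affymetrix chicken genome arrays, made by RMA in the affy package per the labels, with versions not given in the sources used here. RMA corrects background, quantile-normalizes and summarises probes over all arrays, so array medians are close (5.62 to 5.69) and small differences are compressed. No scanner files were used, so the background correction stands as deposited. Of 38535 probe sets, 96 controls were left out. By the platform annotation, 27168 of the rest had 1 symbol, 177 several and 11094 none.

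Groups came from sample titles. The study's methods give other array numbers per group than the labels, which were followed. Differences were fitted with limma 3.58.1 (R 4.3.3), 1 mean per group over 20 arrays, no block, Benjamini-Hochberg over 38439 probe sets, and the same steps were tested on simulated data. For up to 2 genes each way per list and comparison, and 5 like genes per member, names were taken by size. The members and lists were chosen with earlier results of these data known. Precision is limited by 2 or 3 arrays per group.

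Same-numbered arrays deviated together in the 4 comparisons of 3 with 3 arrays (correlations 0.21 to 0.71, from the data, not the labels), so a fit with the replicate number as a block was run beside the main one.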

Additional observations from a re-analysis of the deposited data

Results flagged for a closer look

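By a test of the difference itself, the scale-feather difference was higher in epithelium than in mesenchyme for 3 of the 8 genes in the early and in the late contrast. This was without the arrays labelled E9fe replicate 1 and E9fm replicate 1. The share of all probe sets passing was then 1.68% in the early and 2.27% in the late contrast. For E9 scale against E7 feather skin the excess was 3.68 for COL4A1, 5.21 for COL4A2 and 2.43 for COL4A4. For E11 scale against E9 feather skin it was 2.69 for COL4A1, 2.20 for COL4A4 and 1.84 for NID1. None of these 6 values passed with all arrays. All COL4A4 mesenchyme levels lie below the median of all probe set means, 5.71, so the COL4A4 excess rests on its epithelial difference. In the late contrast the mesenchyme means were lower in E11sm than in E9fm for NID1 (11.25 and 12.02) and COL4A1 (8.62 and 8.88). The mesenchyme estimates of these genes thus had the opposite sign to those in epithelium, but neither passed in E11sm against E9fm. With all arrays the COL4A1 mean was higher in E11sm (8.62) than in E9fm (8.32), so no opposite direction was read. The skeletal muscle marker mean was 6.72 and 6.47 on E9fm replicates 2 and 3, against 4.51 to 4.86 in E11sm. The endothelium marker mean was 8.31 and 8.29 on those 2 arrays, against 7.56 to 7.94 in E11sm. The part of muscle or vessel content in the late contrast was not tested. Groups of 2 or 3 arrays were not screened for single outlying arrays.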

How the results depend on the processing

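The members that passed between scale and feather skin numbered 1 of 48 values. They were 13 without the 2 doubted arrays, 7 with array weights, 3 in fits to only the 2 groups compared, 3 with a filter on dim probe sets, 3 with the mean of all probe sets of a gene, 2 with trended and robust variances, and 0 to 9 on leaving out each array in turn. Between stages 1 of 32 passed, 3 without the 2 doubted arrays, 2 with array weights, 2 with gene means, 0 in fits to 2 groups, and 0 to 2 on leaving out each array. Between compartments 21 of 32 passed, with 21 to 24 under the other settings and 18 to 23 on leaving out each array. With the replicate number as a block the counts were 2, 1 and 21, and the block changed no other call than that of COL4A4 in E9se against E7fe. The 2 E7fm arrays deviated against their same-numbered partners, and with their numbers crossed, chosen after seeing the data, the counts were 2, 1 and 22. Between groups of 2 and of 3 arrays, same-numbered arrays deviated apart in some comparisons (correlations -0.01 and -0.39 in E9fe against E7fe). In others they deviated together (0.38 and 0.11 in E9sm against E9fm). The block can thus join unlike arrays, and like counts with it are no check on the main fit.

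Of 1120 single values under the other settings, 49 came past the threshold, 5 lost it and 0 called values changed sign. The 5 lost calls were COL4A1, COL4A2 and COL4A4 in E9fm against E9fe and COL4A6 in E9fm against E7fm in fits to 2 groups (adjusted p = 0.128, 0.216, 0.228 and 0.307), and COL4A4 in E9fm against E9fe with array weights (0.0536). Another 69 values that had passed in neither fit changed sign. The number of arrays limits the precision, and levels near or below the median of all probe sets carry no detection call.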
